A study of Mus musculus with 4 samples.

Results

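The lipases and colipase of the pancreas digest dietary fat and were followed here in sections of mouse pancreas with caerulein-induced acute pancreatitis. The family was taken as the rows of the count tables named Pnlip, Pnliprp1, Pnliprp2, Cel or Clps, 5 of the 32285 named genes, over spots with at least 500 unique molecular identifiers (UMIs). Pnlip encodes pancreatic triglyceride lipase, and Pnliprp1 and Pnliprp2 encode pancreatic lipase-related proteins 1 and 2. Cel encodes carboxyl ester lipase, which also hydrolyses cholesteryl esters and is activated by bile salts. Clps encodes procolipase, whose processed form anchors pancreatic lipase to fat droplets covered by bile salts. Acinar cells make these proteins, pack them with the other digestive enzymes into zymogen granules, and release them when cholecystokinin or its analogues reach the cell. Their genes are known targets of acinar transcription factors, among them the PTF1 complex of PTF1A and RBPJL and the nuclear receptor NR5A2.

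The mice were C57Bl/6 and carried Pdx1-Cre, a recombinase driven in the pancreatic epithelium from development on. In Ehmt2+/+ mice (labelled PDX1-Cre (WT)) Ehmt2, the gene of a histone H3 lysine 9 methyltransferase, was intact, while Ehmt2fl/fl mice (labelled as EHMT2 knockout) carried floxed Ehmt2 that Cre inactivates in that epithelium and not in stromal, immune or blood cells. Mice of both genotypes were fasted for 12 h and given 8 hourly intraperitoneal injections of caerulein at 50 μg/kg, and pancreas was collected 18 h after the first at 4 weeks of age. No section without caerulein was analysed here, so the values describe the injured pancreas of both genotypes. The labels give 2 sections of each genotype as separate samples and do not state that they came from separate mice, so p-values measure only the spread between these sections, which may be technical. The values below are given in the order Ehmt2+/+ replicates 1 and 2, then Ehmt2fl/fl replicates 1 and 2.

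The sections were fixed in formalin, embedded in paraffin and profiled with the CytAssist Visium assay, in which pairs of gene-specific probes are ligated on RNA and captured on barcoded spots, each of which covers several cells. The 4 sections held 6144, 7871, 6483 and 6462 spots past 500 UMIs, with 43784930, 7845575, 6643747 and 7938386 UMIs, and the median such spot held 6327.5, 874, 981 and 1113. Ehmt2+/+ replicate 1 was thus several times deeper than the other sections. Olfactory receptor genes, a family not known to act in the pancreas, had a median level of 0.251, 4.97, 8.28 and 12.6 UMIs per 1000000 (CPM) and a 95th percentile of 0.571, 8.67, 16.7 and 21.2 CPM, which serves as a measure of background. The 4 Y-linked genes measured (Ddx3y, Eif2s3y, Kdm5d and Uty) lay between 0 and 0.0228 CPM in the Ehmt2+/+ sections. In the Ehmt2fl/fl sections they lay between 4.97 and 17.5 CPM, below the 95th percentile of the olfactory receptor genes. All 4 were at 0 in Ehmt2+/+ replicate 2, where the 5th percentile of the olfactory receptor genes was 2.2 CPM. The olfactory level is therefore a rough measure and not the background of every gene. Genotype and the sex of the mice cannot be told apart. Ehmt2 itself had 19.8, 3.95, 10.1 and 12.1 CPM, near background in 3 sections, and did not check the labels. Summed macrophage markers (7 of 7 genes measured, none at 0) were at 80.5 and 129 against 750 and 569 CPM, fibroblast markers (6 of 6, none at 0) at 416 and 540 against 2002 and 1899 CPM, and adipocyte markers (6 of 6, none at 0) at 42.0 and 127 against 351 and 448 CPM. Neutrophil markers (6 of 6) were at 3.61 and 40.2 against 132 and 131 CPM and lymphoid markers (7 of 7) at 7.81 and 65.1 against 163 and 168 CPM, none at 0. In the order of the sections, the genes above the 95th percentile of the olfactory receptors were 7, 6, 6 and 6 of the macrophage list, 6, 6, 5 and 5 of the fibroblast list, 2, 2, 2 and 3 of the adipocyte list, 2, 0, 5 and 3 of the neutrophil list and 4, 3, 6 and 3 of the lymphoid list. The fatty acid binding protein gene Fabp4 alone gave 271 and 335 CPM of the adipocyte sums in Ehmt2fl/fl, while Cidec, Lep and Plin1 lay between 5.72 and 14.1 CPM there, so the adipocyte, neutrophil and lymphoid sums hold levels near background. In CPM most genes were higher in Ehmt2fl/fl, since with library sizes alone 2.01% of all genes had a log2 fold change below 0. With edgeR's TMM scaling the median log2 fold change was 0.84 for the macrophage, −0.13 for the fibroblast and 0.81 for the adipocyte list. It was 1.34 for the neutrophil and 1.18 for the lymphoid list, against 0.25 over all genes. The sums alone are therefore not read as more of these cells. The part of these cells in the results below was not tested, and fewer acinar cells in a spot and less RNA per acinar cell cannot be told apart.

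Of the 5 genes, 4 were measured. Pnliprp1 (ENSMUSG00000042179) had 0 UMIs in every section, which allows at most 0.0685, 0.382, 0.452 and 0.378 CPM if the assay holds a working probe pair for it. The same was seen for 11897 named genes in all, among them the digestive enzyme genes Cpb1, Amy2a2, Amy2a3 and Amy2a4, and the probe list was not used here. Nothing is therefore said of the level of Pnliprp1. By RefSeq positions on the mm10 (GRCm38) genome Pnlip (ENSMUSG00000046008; chromosome 19, 58670365 to 58681799), Pnliprp1 (58728887 to 58744169) and Pnliprp2 (ENSMUSG00000025091; 58759723 to 58777534) lie beside each other on the plus strand. Cel (ENSMUSG00000026818; chromosome 2, 28555819 to 28563403) and Clps (ENSMUSG00000024225; chromosome 17, 28558210 to 28560766) lie elsewhere, with Cel on the minus strand.

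Because the measured members sit at 3 separate places in the genome, the 250 bases before the start of each gene were read for the letters bound by acinar factors. RefSeq promoters of GRCm38.p6 were matched for 4 of the 5 genes, and the 3 of them with counts are shown 5′ to 3′ on the strand of the gene. Capitals mark the PTF1 E-box CACCTG, the PTF1 TC box TGGGAA, the NR5A2 half-site AAGGTCA and the TATA box TATAAA. Each was searched on both strands, and no marked sites overlap. Cel stands at chr2:28563404-28563653 on the minus strand, Pnlip at chr19:58670115-58670364 and Pnliprp2 at chr19:58759473-58759722, both on the plus strand.
Cel: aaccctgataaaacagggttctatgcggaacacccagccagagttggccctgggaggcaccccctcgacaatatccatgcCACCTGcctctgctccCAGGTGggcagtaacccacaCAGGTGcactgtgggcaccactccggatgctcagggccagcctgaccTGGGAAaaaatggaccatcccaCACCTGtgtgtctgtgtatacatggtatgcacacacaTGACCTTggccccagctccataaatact
Pnlip: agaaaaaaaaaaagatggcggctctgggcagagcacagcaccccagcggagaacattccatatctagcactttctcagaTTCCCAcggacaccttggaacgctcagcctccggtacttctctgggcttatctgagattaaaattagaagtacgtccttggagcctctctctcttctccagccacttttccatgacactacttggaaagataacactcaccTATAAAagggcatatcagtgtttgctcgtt
Pnliprp2: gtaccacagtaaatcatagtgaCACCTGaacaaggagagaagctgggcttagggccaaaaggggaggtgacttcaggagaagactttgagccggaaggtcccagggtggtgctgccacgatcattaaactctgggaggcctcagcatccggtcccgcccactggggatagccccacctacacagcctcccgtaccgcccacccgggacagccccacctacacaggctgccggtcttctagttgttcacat
The Cel promoter held 4 E-boxes, beginning 170, 154, 134 and 65 bases before the start, with a TC box at 87 and an NR5A2 half-site at 28. At least 4 E-boxes in 250 bases were found in 14 of the 32851 mouse promoters (0.0426%), a property singled out after the match was seen. Pnlip held a TC box at 171 and a TATA box at 30 and no E-box, and Pnliprp2 held an E-box at 228 only. Over all promoters the E-box was found in 17.2%, the TC box in 21.6%, the half-site in 4.08% and the TATA box in 12.4%, and over the 25 promoters of the other digestive enzymes in 60%, 48%, 16% and 44%. None of the 4 motifs was found in all 3 of the promoters shown, and a match is a description of letters only.

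The comparison of genotypes asked how the fat-digesting genes stood when Ehmt2 was inactivated in the injured pancreas. All 4 measured genes were lower in both Ehmt2fl/fl sections than in both Ehmt2+/+ sections. Of the 20053 genes past the filter on low counts, 0.778% showed this order. Summed over the family, the level was 25620 and 17566 CPM in Ehmt2+/+ and 5287 and 5049 CPM in Ehmt2fl/fl, with means of 21593 ± 5694 and 5168 ± 168 CPM (SD, n = 2 sections each), a 4.18-fold difference. In an exact two-sided permutation test over sections the p was 0.333, which is the smallest that 2 sections against 2 can give.

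Cel, whose counts were the highest of the family in every section, had 17901, 13946, 4342 and 4218 CPM, 3.72-fold lower in Ehmt2fl/fl. The genotypes were well apart, since even the closest pair of sections differed 3.21-fold, while replicates differed at most 1.28-fold. Clps had 2006, 1434, 249 and 278 CPM, a 6.53-fold difference between means and a 5.15-fold difference between the closest sections. Pnlip had 5160, 1979, 511 and 434 CPM. Its means differed 7.55-fold, the most of the family, but the Ehmt2+/+ replicates themselves differed 2.61-fold and the closest sections of the 2 genotypes 3.87-fold. Pnliprp2 had 552, 207, 185 and 118 CPM. Here the Ehmt2+/+ replicates differed 2.67-fold, and Ehmt2+/+ replicate 2 and Ehmt2fl/fl replicate 1 only 1.12-fold, so the 2.50-fold difference between means rested on the deeper Ehmt2+/+ section. All levels lay above the background: the lowest, Pnliprp2 in Ehmt2fl/fl replicate 2, was 9.39 times the median olfactory receptor gene. The fewest UMIs behind a value were 939, for Pnliprp2 in Ehmt2fl/fl replicate 2. Counts of different genes depend on their probes, so levels were compared between sections and not between genes.

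**Figure D1:**
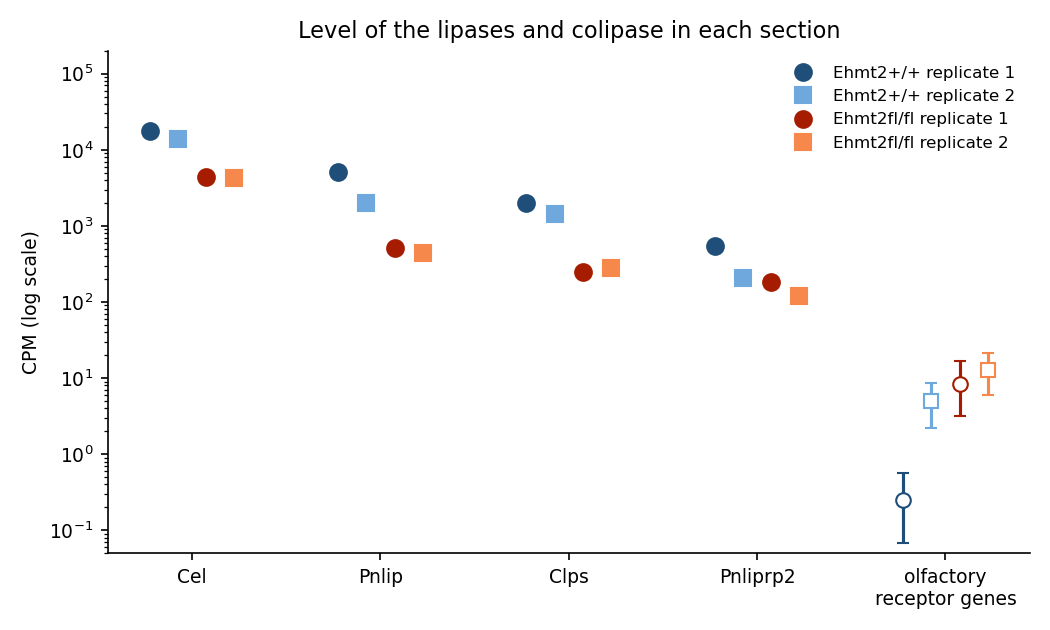
Level of each measured gene in each section, in UMIs per 1000000 (CPM, log axis), beside the median olfactory receptor gene (open symbols; bars from the 5th to the 95th percentile of 1107 genes). Both Ehmt2fl/fl sections lie below both Ehmt2+/+ sections for all 4 genes, with the smallest gap for Pnliprp2 (207 against 185 CPM), while the olfactory receptor genes are lowest in Ehmt2+/+ replicate 1.

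In edgeR's quasi-likelihood test over all genes, with TMM normalization and Benjamini-Hochberg adjustment, none of the 4 genes was called at an adjusted p of 0.05, where 0.11% of all genes were (22 of 20053). At the dispersion of these data the fit recovered 0 of 199 genes simulated with a log2 change of 2. Larger changes, such as those of the 4 genes below, were not simulated. A missing call is therefore not read as no change. The log2 fold change of Ehmt2fl/fl against Ehmt2+/+ was −5.31 for Pnlip (SE 1.92, adjusted p = 0.590), −4.94 for Clps (SE 1.68, adjusted p = 0.465), −4.08 for Cel (SE 2.21, adjusted p = 0.863) and −3.70 for Pnliprp2 (SE 1.34, adjusted p = 0.582). At an unadjusted p under 0.05 there were 3 of the 4 (Pnlip, Pnliprp2 and Clps), against 4.9% of all genes in that direction. The fold changes depend on the scaling, because the median gene stood at 0.25 on the log2 scale with TMM and at 1.70 with library sizes alone. With library sizes the changes were −2.92 for Pnlip, −2.71 for Clps, −1.90 for Cel and −1.32 for Pnliprp2, and Clps was called (adjusted p = 0.0328), where 0.0598% of all genes were called in that direction and 2.01% had a log2 fold change below 0. DESeq2 called all 4, but also 26.1% of the 1781 genes to which it gave an adjusted p as lower. Leaving out Ehmt2+/+ replicate 1, the deepest section, gave −3.01 for Pnlip (adjusted p = 0.0284) and −3.41 for Clps (adjusted p = 0.00224) and called both, with 0.801% of all genes called lower. Without Ehmt2+/+ replicate 2 all 4 were called, but so were 16653 of 20117 genes in either direction and 36.3% of all genes as lower, so nothing is read from those calls. Without either Ehmt2fl/fl section none of the 4 was called and 0% of all genes were called lower.

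A ratio within the digestive enzymes does not depend on how libraries are scaled. It asks whether fat digestion genes differed beyond the sum of the other enzymes of the acinar cell. The other digestive enzymes, proteases, amylases and nucleases of the same granules with 24 genes measured, took 59.8%, 50.0%, 21.3% and 20.6% of the UMIs, so they were lower in Ehmt2fl/fl as well. Per 1000 of their UMIs the family had 42.9, 35.1, 24.9 and 24.5 UMIs, 1.58-fold lower in Ehmt2fl/fl, with 1.41-fold between the closest sections and 1.22-fold between the Ehmt2+/+ replicates (exact two-sided permutation test, p = 0.333). The sections of the genotypes did not overlap, and the Ehmt2fl/fl sections were nearly equal to each other. Single enzymes in that sum varied. In CPM 15 of the 24 were lower in both Ehmt2fl/fl sections, 7 higher in both, and 2 overlapped. Of those named below as nearest to members across spots, Cela2a differed 8.97-fold, more than any member. The others were Prss2 (3.87-fold), Cela3b (3.67-fold), 2210010C04Rik (3.62-fold), Cpa1 (3.48-fold) and Cela1 (3.05-fold), while Cel differed 3.72-fold. The ratio to the sum thus does not set the members apart from every single enzyme.

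Members differed in this ratio. Clps had 3.36, 2.87, 1.17 and 1.35 UMIs per 1000, a 2.47-fold difference. Pnlip had 8.63, 3.96, 2.40 and 2.11 UMIs per 1000, 2.79-fold between means and 1.65-fold between the closest sections. For Cel the ratio was 29.95, 27.9, 20.4 and 20.5 per 1000, a difference of 1.41-fold. Pnliprp2 stood apart from the others: its 0.923, 0.414, 0.870 and 0.574 UMIs per 1000 overlapped between the genotypes (means 0.669 ± 0.360 and 0.722 ± 0.209, SD, n = 2; exact permutation p = 1), so no difference from the other enzymes was detectable for it with this spread. A chymotrypsinogen gene, Ctrb1, made up 59.3%, 59.6%, 68.4% and 68.4% of the other enzymes. Without Ctrb1, an alternative chosen after the data were seen, the family had 105, 87.0, 78.7 and 77.5 UMIs per 1000, a 1.23-fold difference, and the difference of Cel was 1.10-fold, that of Clps 1.92-fold and that of Pnlip 2.17-fold. Pnliprp2 then had 2.27, 1.03, 2.75 and 1.82 UMIs per 1000, with a mean 1.39-fold higher in Ehmt2fl/fl and sections that overlapped (exact permutation p = 0.667). In both settings Pnlip and Clps differed more than Cel did.

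**Figure D2:**
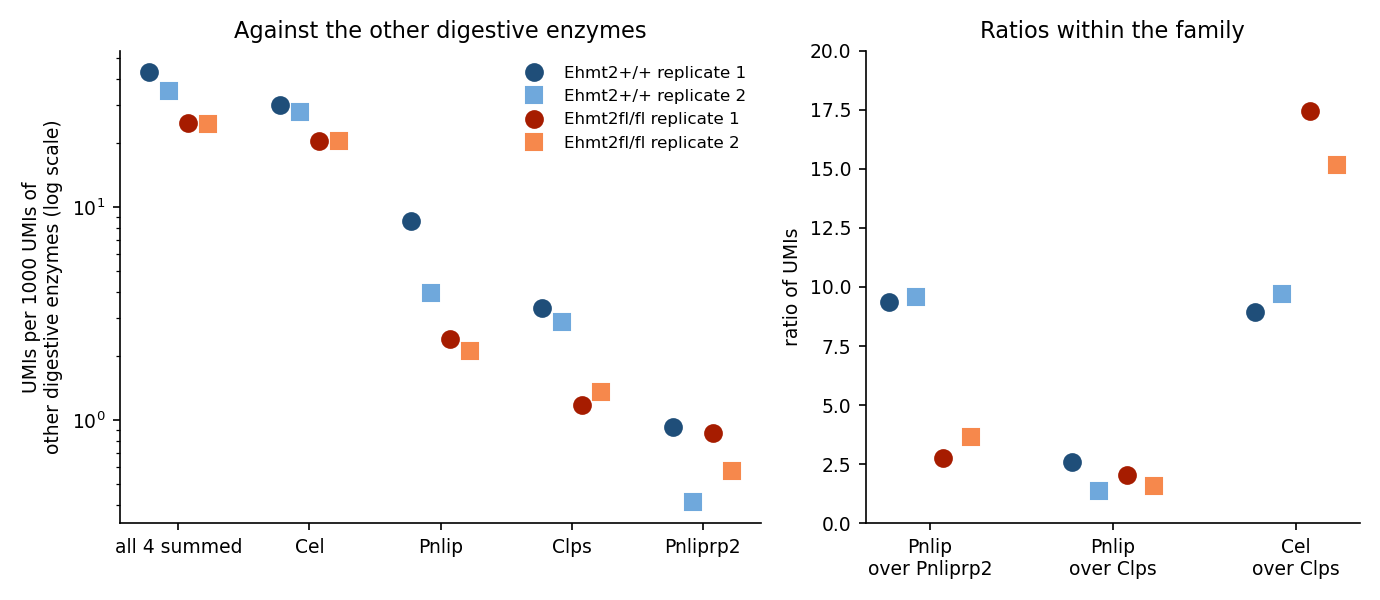
Left, UMIs of the 4 genes summed and of each gene per 1000 UMIs of the other digestive enzymes (log axis), a point for each section. Right, ratios of UMIs between members, a point for each section. The family, Cel, Pnlip and Clps are lower in both Ehmt2fl/fl sections, Pnliprp2 overlaps, and Pnlip over Pnliprp2 is near 9 in Ehmt2+/+ (9.35 and 9.57) and near 3 in Ehmt2fl/fl (2.76 and 3.67).

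The makeup of the family was compared between sections, as the percent of the UMIs of the 4 genes. Cel took 69.9%, 79.4%, 82.1% and 83.6%, Pnlip 20.1%, 11.3%, 9.67% and 8.59%, Clps 7.83%, 8.17%, 4.71% and 5.51%, and Pnliprp2 2.15%, 1.18%, 3.50% and 2.34%. Cel and Pnliprp2 thus took more of the family and Pnlip and Clps less in both Ehmt2fl/fl sections. The closest sections of the genotypes lay near each other for Cel (79.4% against 82.1%), Pnliprp2 (2.15% against 2.34%) and Pnlip (11.3% against 9.67%). Ratios between members were compared as well. There were 9.35 and 9.57 UMIs of Pnlip for each UMI of Pnliprp2, its neighbour on chromosome 19, in Ehmt2+/+ and 2.76 and 3.67 in Ehmt2fl/fl. For each UMI of Clps there were 8.92 and 9.72 of Cel in Ehmt2+/+ and 17.4 and 15.2 in Ehmt2fl/fl. In contrast, Pnlip and its cofactor Clps kept overlapping ratios (2.57, 1.38, 2.05 and 1.56; exact permutation p = 1), and so did Pnliprp2 and Cel (0.0308, 0.0148, 0.0426 and 0.0280; exact permutation p = 0.667). Of the 6 pairs, 4 did not overlap, each at the smallest p of 0.333 that this design allows, which does not pass any adjustment over the pairs. The pairs share the same 4 genes and are not independent. Ratios between other genes were not computed, so the count is not read as particular to the family.

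Against all genes other than digestive enzymes, which leaves the enzymes out of the scale, the family had 680, 364, 67.6 and 64.0 UMIs per 10000. On this scale the difference between means was 14.8-fold for Pnlip, 12.4-fold for Clps, 7.01-fold for Cel and 4.90-fold for Pnliprp2. The order of the members was the same as for CPM, and the sections of the genotypes did not overlap for any of them. That lack of overlap was fixed in advance by the order in CPM. Enzymes took more of the UMIs in both Ehmt2+/+ sections, so this scale could only widen the gaps. Without Ehmt2+/+ replicate 1 the log2 difference went from −3.89 to −2.77 for Pnlip and from −2.29 to −1.15 for Pnliprp2.

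Across the tissue, the family was present in nearly every spot of the Ehmt2+/+ sections. Cel had a UMI in 100%, 98.9%, 89.9% and 85.4% of spots, Pnlip in 99.1%, 74.9%, 37.6% and 34.5%, Clps in 95.5%, 67.1%, 20.8% and 25.2%, and Pnliprp2 in 84.5%, 17.9%, 16.8% and 12.7%. The widest 95% Clopper-Pearson interval was that of Pnlip in Ehmt2fl/fl replicate 1, from 36.4 to 38.8%. The shares move with depth, so every spot was thinned to 500 UMIs. Pnlip was then found in 86.9%, 57.7%, 22.1% and 17.5% of spots, Clps in 58.4%, 47.4%, 10.98% and 11.96%, Cel in 99.8%, 98.4%, 79.2% and 73.1%, and Pnliprp2 in 22.6%, 9.38%, 8.59% and 5.43%. Both Ehmt2fl/fl sections stayed below both Ehmt2+/+ sections for every gene (exact permutation p = 0.333 for each), with the least space for Pnliprp2. These shares follow the levels given above and add no separate evidence. How many of all genes show this order in their shares of spots was not computed.

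As a gauge of UMIs from outside the acinar cells, the 50 spots richest in lymphoid markers were read at the same 500 UMIs. Among them Cel was found in 100%, 82%, 16% and 28%, and Pnlip in 84%, 36%, 6% and 6%. In both Ehmt2fl/fl sections the share over all spots was well above the share at lymphoid spots. In Ehmt2+/+ replicate 1 it was not, and there the 5% of spots richest in lymphoid markers still held 59.9% other digestive enzymes. In Ehmt2+/+ replicate 2 the share over all spots was 98.4% for Cel and 57.7% for Pnlip, above the 82% and 36% at lymphoid spots. At the 50 spots richest in adipocyte markers Cel was found in 96%, 78%, 36% and 4%, so the gauge differs with the markers used. Off the tissue, in spots below the tissue limit, the median spot held 39, 31, 12 and 11 UMIs, and 40.4%, 29.8%, 5.55% and 5.19% of them had a UMI of Cel.

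Counting the family in each thinned spot, the mean was 11.9, 8.44, 2.54 and 2.24 UMIs of 500 and the median 12, 8, 2 and 2. The distribution as a whole lay lower in Ehmt2fl/fl. Spots without any UMI of the family made up 0.0326%, 1.11%, 15.4% and 21.9%, and the 90th percentile was 18, 14, 5 and 5 UMIs. The 10% of spots with the most UMIs held 17.5%, 18.6%, 27.1% and 29.1% of the family, so at this depth the counts were more unequal among spots in Ehmt2fl/fl, where they were also lower. The variance over the mean, 1.83, 1.82, 1.69 and 1.86, overlapped between the genotypes.

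**Figure D3:**
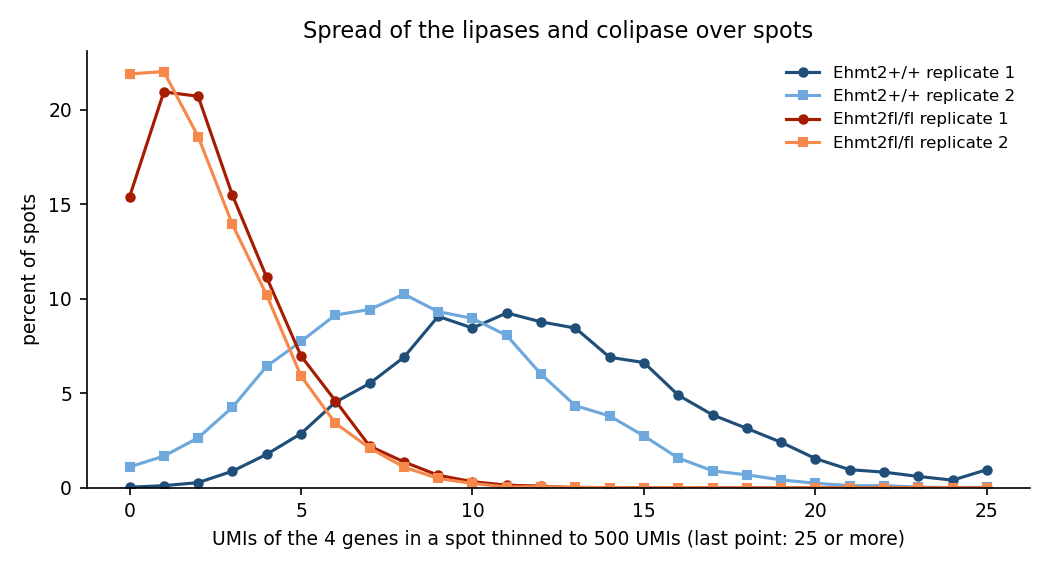
Percent of spots (vertical axis) by the number of UMIs of the 4 genes after each spot was thinned to 500 UMIs (horizontal axis; the last point holds 25 or more), a line for each section. The Ehmt2fl/fl sections have their medians at 2 UMIs and the Ehmt2+/+ sections at 12 and 8, with few spots without the family in Ehmt2+/+.

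Spots with a like content of the other digestive enzymes were then compared. Most Ehmt2+/+ spots had 50 to 70% of their UMIs outside the family from those enzymes (5886 and 4598 spots), and most Ehmt2fl/fl spots 10 to 30% (4099 and 3818 spots). Only the class from 30 to 50% held at least 50 spots of every section (182, 2806, 1186 and 1002). In it the family had 181, 139, 86.4 and 89.1 UMIs per 10000 UMIs of all other genes, −0.87 on the log2 scale between the means, and 40.9, 32.2, 24.1 and 24.4 per 1000 UMIs of the other enzymes, a 1.51-fold difference (exact permutation p = 0.333 for both). The match is loose, since the median enzyme content within the class was still 46.7%, 44.0%, 34.8% and 34.7%. The 1.51-fold difference of the class was near the 1.58-fold difference of whole sections. In the poorest class, below 10%, Ehmt2+/+ replicate 2 with 90 spots had 32.8 per 1000 and the Ehmt2fl/fl sections had 31.0 and 29.1. Ehmt2+/+ replicate 1 had no such spot. The match was loose there too, with a median enzyme content of 2.15% in Ehmt2+/+ replicate 2 and 6.35% and 5.60% in Ehmt2fl/fl. Nothing is read from the closeness of these values.

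**Figure D4:**
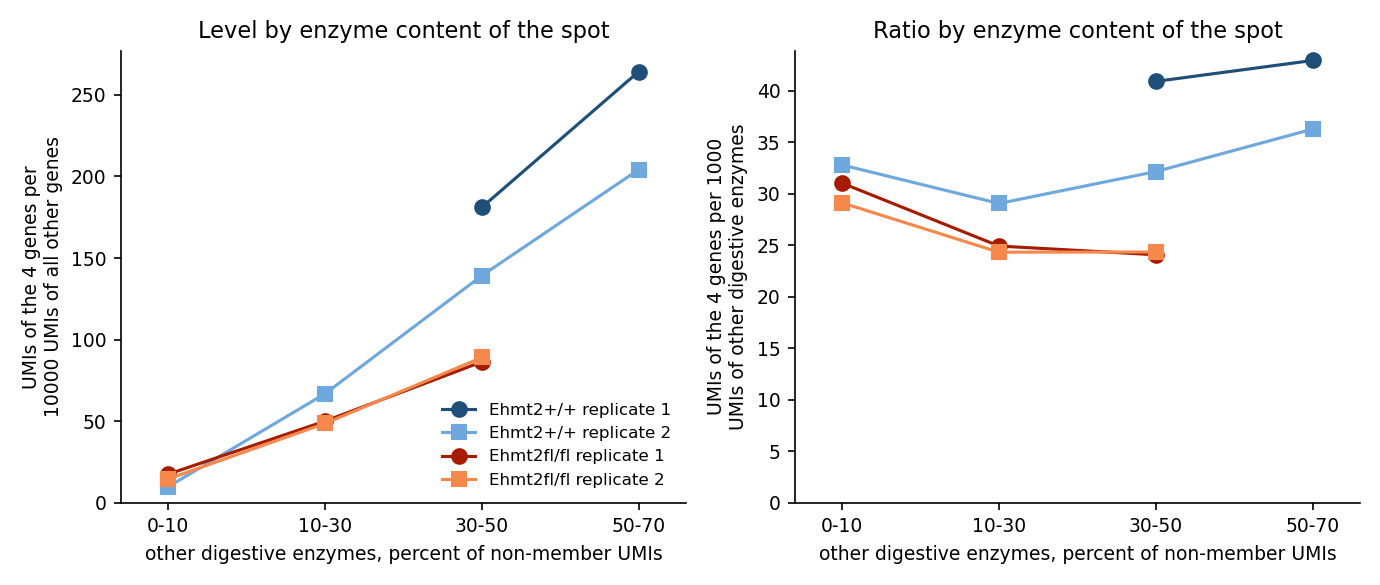
Left, UMIs of the 4 genes per 10000 UMIs of all other genes, and right, per 1000 UMIs of the other digestive enzymes, for spots grouped by the percent of their non-member UMIs that comes from those enzymes. Points are sections with at least 50 spots in the group. From 30 to 50% the Ehmt2fl/fl sections lie at 86.4 and 89.1 on the left and 24.1 and 24.4 on the right, below both Ehmt2+/+ sections.

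Spots rich in markers of other cell types held a similar summed proportion of the family, most of it Cel, to their other digestive enzymes. In the 5% of spots richest in fibroblast, macrophage, islet, duct, lymphoid, neutrophil, adipocyte or blood markers, the family per 1000 UMIs of other enzymes was between 0.82 and 1.10 times that of the remaining spots of the section. The lowest value was that of macrophage-rich spots in Ehmt2+/+ replicate 1 and the highest were those of islet-rich spots in Ehmt2fl/fl replicate 1 and macrophage-rich spots in Ehmt2fl/fl replicate 2. Single members varied more, from 0.62 to 1.43 times for Pnliprp2 and from 0.78 to 1.28 times for Pnlip. Some sets held spots without a marker UMI. In Ehmt2+/+ replicate 1, 154 of 307 neutrophil spots had one, and in replicate 2, 303 of 394 neutrophil and 207 of 394 blood spots. Adipocyte-rich spots of Ehmt2fl/fl replicate 2, with 9.28% other enzymes against 21.1% elsewhere, had 23.1 family UMIs per 1000 against 24.5.

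The genes whose levels followed the family most closely from spot to spot were other secreted products of acinar cells. Among 1188 genes with a UMI in at least 5% of spots of every section, Reg1, a secreted lectin of acinar cells, was nearest to Cel, with a mean Pearson correlation of 0.55 across the spots of the 4 sections (0.43, 0.65, 0.54 and 0.58), followed by the elastase gene Cela2a (0.55), the carboxypeptidase gene Cpa1 (0.53), the trypsinogen gene 2210010C04Rik (0.52) and Cela3b (0.52). For Pnlip the order was 2210010C04Rik (0.32), Cpa1 (0.32), Reg1 (0.31), Cela2a (0.30) and Cela1 (0.29), and for Clps it was Cpa1 (0.26), 2210010C04Rik (0.26), Cela2a (0.26), Reg1 (0.26) and Cela1 (0.24). Pnliprp2 was followed least closely, with 0.14 for Reg1, 0.13 for Cela2a, 2210010C04Rik and Cpa1, and 0.12 for the trypsinogen gene Prss2. Spots share a library and the enzymes share the spot's total, and fewer counts lower a correlation, so these values are descriptions, and the order of the members was that of their counts.

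Other genes of acinar secretion and of fat metabolism were set beside the family. With TMM, 43.8% of all genes (8787 of 20053) had a log2 fold change below 0. Zymogen granule genes, coding for granule membrane and cargo proteins and the cholecystokinin receptor, had 6 of 6 measured genes below 0. None of them was called by edgeR, while DESeq2 called 5 as lower and gave 1 no adjusted p. Their median was −3.37, from Zg16, a granule lectin (−3.93), to the receptor gene Cckar (−3.03). Cckar overlapped between the genotypes in CPM (24.6, 8.29, 10.99 and 10.8) and was at −0.60 with library sizes and at −0.57 without Ehmt2+/+ replicate 1. Except in Ehmt2+/+ replicate 1 it lay below the 95th percentile of the olfactory receptor genes. Other digestive enzymes had 20 of 24 below 0 and none called by edgeR, with a median of −3.51, against a median of 0.25 over all genes. In the order of the sections, 24, 23, 20 and 20 of the 24 lay above the 95th percentile of the olfactory receptors. DESeq2 called 15 of them as lower and gave 5 no adjusted p. Over all genes it called 26.1% of the 1781 with an adjusted p as lower. With library sizes in place of TMM 6 of 6 granule genes and 15 of 24 enzyme genes were below 0, against 2.01% of all genes. In that setting 5 enzyme genes were called, 2 higher and 3 lower, against 388 higher and 12 lower of all 20053 genes. At an unadjusted p under 0.05 from edgeR with TMM there were 4 granule genes and 9 enzyme genes, all lower, against 4.9% of all genes. In CPM some trypsinogen genes were higher in Ehmt2fl/fl, with 499, 385, 3473 and 3856 CPM for Prss1 and 1011, 1440, 5012 and 4321 CPM for Prss3. With TMM their log2 fold changes were 0.85 and −0.014, and neither was called. These genes are closely related, and it was not tested whether the probes tell them apart.

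Against 43.8% of all genes below 0 with TMM and 0.11% called, acinar transcription factors had 7 of 7 below 0 and 1 called. This was Rbpjl, the acinar partner of PTF1A in the PTF1 complex, at 95.2 and 53.2 CPM in Ehmt2+/+ and 15.7 and 12.7 CPM in Ehmt2fl/fl (log2 fold change −4.67, SE 1.15, adjusted p = 0.0465). It stood at 1.89 and 1.01 times the median olfactory receptor gene in Ehmt2fl/fl, so its level there was within the background. The call of Rbpjl was lost with upper-quartile scaling (adjusted p = 0.116) and without either Ehmt2fl/fl section. Ptf1a was at 27.4, 22.9, 30.7 and 25.3 CPM, Nr5a2 at 26.4, 20.1, 20.3 and 25.6 CPM, and Bhlha15, which shapes the secretory apparatus of acinar cells, at 19.2, 20.4, 18.7 and 23.2 CPM. These 3 overlapped between the genotypes in CPM, were between 1.84 and 3.71 times the olfactory median in the Ehmt2fl/fl sections, and their log2 fold changes of −1.996, −2.24 and −2.01 with TMM became 0.15, −0.02 and 0.08 with library sizes. The least negative was that of Foxa3 (−1.38), which became 0.68.

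Lipases outside the family had directions divided much as those of all genes. Of 16 genes listed 14 were tested, and none was called by edgeR (2 were lower at an unadjusted p under 0.05). With TMM 6 lay below 0 and 8 above, where 43.8% of all genes lay below 0. In the order of the sections, 9, 6, 6 and 7 of the 16 lay above the 95th percentile of the olfactory receptors. Of those above it in every section, Dagla, Lpl, Mgll, Pla2g1b and Pnpla2 were below 0 with TMM and Lipe was at 0.10. The split thus holds many genes near background. The median log2 fold change of the tested lipases was 0.31, against 0.25 over all genes. The lowest was that of Pla2g1b, the phospholipase A2 of the same zymogen granules, at 2714, 1737, 582 and 644 CPM, a 3.63-fold difference near that of Cel (log2 fold change −4.13, SE 1.69, adjusted p = 0.751). DESeq2 called Pla2g1b as lower (−4.63, adjusted p = 5.02e-05). It gave no adjusted p to the 13 other tested lipases, so none of those could be called. Lipases of fat cells and vessel walls had other patterns. Hormone-sensitive lipase, Lipe, was at 11.9, 32.0, 71.0 and 82.0 CPM, with a log2 fold change of 0.10 with TMM and 1.81 with library sizes. Both Ehmt2fl/fl sections lay above both Ehmt2+/+ sections in CPM for Lipe. The median olfactory receptor gene showed the same order (0.251, 4.97, 8.28 and 12.6 CPM), so nothing is read from it. Lipoprotein lipase, Lpl, was at 9.57, 13.0, 33.0 and 28.5 CPM (−0.52 with TMM and 1.45 with library sizes) and adipose triglyceride lipase, Pnpla2, at 41.9, 29.4, 31.2 and 39.2 CPM. With library sizes the median of all genes was 1.70 and 2.01% lay below 0, so Lipe and Lpl were near the median gene there. The highest log2 fold change, 1.20 for the gastric lipase gene Lipf, came from levels of 0.297, 6.25, 11.4 and 22.2 CPM that lay at 1.18 to 1.76 times the olfactory receptor median in every section.

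**Figure D5:**
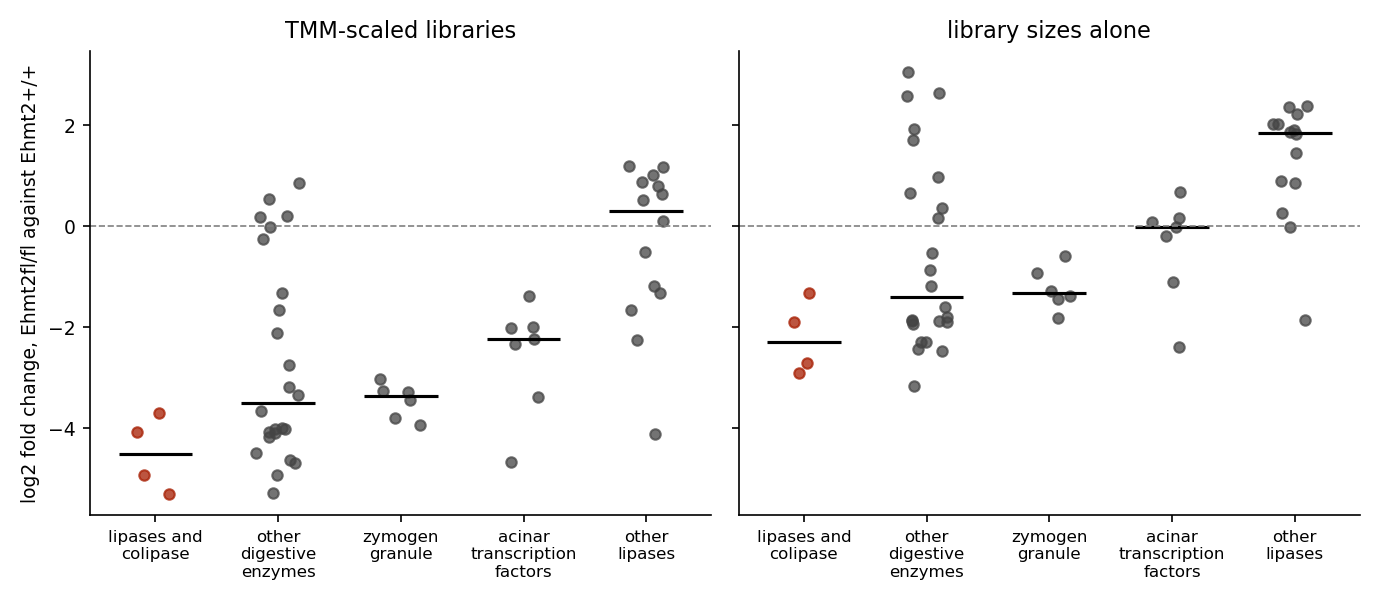
Log2 fold change of Ehmt2fl/fl against Ehmt2+/+ for each tested gene (points, with the median of each list as a line), from edgeR with TMM scaling (left) and with library sizes alone (right). The lipases and colipase (median −4.51 and −2.30) lie below 0 under both scalings, while acinar transcription factors move from a median of −2.24 to −0.02 and other lipases from 0.31 to 1.84.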

How the data were processed

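Probe-based spatial RNA libraries of 4 formalin-fixed pancreas sections were counted by the authors with Space Ranger 2.0.1 (per the file headers) on the mouse mm10 reference. They deposited unnormalized UMI counts for 32589 features and all spots of the capture area. Here 304 deprecated features were left out, and spots with at least 500 UMIs were kept, which hold 98.8%, 88.4%, 93.1% and 92.1% of a section's UMIs. The tissue marks of the alignment files carry no barcodes and were not joined. Bulk RNA-seq was not analysed here.

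Counts were summed per section, the replicate, and fitted with the quasi-likelihood test of edgeR 4.0.16 under R 4.3.3 (TMM; filterByExpr, minimum count 10; Benjamini-Hochberg over 20053 genes; threshold 0.05), with DESeq2 1.42.0 as an alternative. TMM factors were 0.288, 0.957, 1.71 and 2.13. Section values were compared with exact two-sided permutation tests. Whether the sections pair is not given in the labels, and none were paired. Thinning drew UMIs of a spot without replacement. Intervals and floors of 3 counts cover counting error only. The fit was tested on simulated data of 2 against 2 sections with a log2 change of 2. It recovered 194 of 200 changed genes at a dispersion of 0.05. At 0.351, the common dispersion of these data, it recovered 0 of 199. A gene not called by this fit is thus not shown to be unchanged.

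The members and lists were chosen with earlier results of these data known. Named are the members, 8 fixed genes of the lists (Pla2g1b, Lpl, Lipe, Pnpla2, Ptf1a, Rbpjl, Nr5a2 and Bhlha15), the highest and lowest log2 fold change of the lipase, granule and factor lists, the 5 genes most like each member across spots, and label checks. Ctrb1, Prss1 and Prss3 were named, and the fold differences of single other enzymes were added, after their values were seen. Alternatives were other scalings, filters, spot sets, thresholds and weightings, and each section left out. Other steps ran in Python 3.11.15 (scipy 1.17.1, numpy 2.4.6, matplotlib 3.10.9, pandas 2.3.3).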

Additional observations from a re-analysis of the deposited data

How the results depend on the processing

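In all 48 alternatives of the log2 fold changes of Pnlip, Pnliprp2, Cel and Clps the value was below 0, and all 114 alternatives of the 19 section values kept their direction. Where the genotypes do not overlap, leaving out a section cannot turn the direction, so those alternatives could not fail. Pnliprp2 per 1000 UMIs of other enzymes overlapped and was not recomputed with a section left out. Ehmt2+/+ replicate 1 alone had 0.923 there, above the Ehmt2fl/fl mean of 0.722, which turns its direction. The calls were less stable. DESeq2 called all 4 members (Pnlip −5.85, Pnliprp2 −4.24, Cel −4.58, Clps −5.44) and 470 genes, 6 higher and 464 lower, with an adjusted p for only 1781. Library sizes without TMM called Clps (−2.71), 1 member, and 400 genes, 388 higher and 12 lower, against 11 higher and 11 lower in the reported fit. Upper-quartile scaling called 3 genes, and an adjusted p under 0.1 with a fold change of at least 2 called 35 genes, 13 higher and 22 lower. The cause of these differences was not tested.

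Leaving out each section in turn gave log2 fold changes from −6.30 to −3.01 for Pnlip, −4.70 to −1.38 for Pnliprp2, −4.93 to −2.66 for Cel and −5.80 to −3.41 for Clps, with 0 to 4 members called and 0 to 16653 genes. The highest count came without Ehmt2+/+ replicate 2, where the lone remaining section of its group is assumed to vary like the others, and 0 came without Ehmt2fl/fl replicate 2, with 18 genes at an unadjusted p under 0.05. The share of spots with a UMI of Pnliprp2 differed by −69.7 to −3.16 percentage points across these, with the smallest difference without Ehmt2+/+ replicate 1.

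Of the named genes, library sizes turned the sign of Lpl (1.45), Ptf1a (0.15), Bhlha15 (0.079) and Foxa3 (0.68), upper-quartile scaling that of Lpl (0.12) and DESeq2 that of Lipe (−0.27). Leaving out a section turned Lpl (−1.18 to 0.28) and Lipe (−0.19 to 0.29). With every spot or with spots over tissue Rbpjl missed the threshold (adjusted p = 0.0586 and 0.0567 from edgeR), and its log2 fold change ran from −5.60 to −2.86 with a section left out. Levels close to those of the olfactory receptor genes cannot be told apart from background at this depth. Lipf lay above their 95th percentile only in Ehmt2fl/fl replicate 2, and narrowly (22.2 against 21.2 CPM).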
